A study of Homo sapiens with 4 samples.

Results

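The zinc finger genes of chromosome 19 were taken as the protein-coding genes on that chromosome whose symbol is ZNF, a number and at most 1 letter, in the GENCODE annotation (release 44) placed on hg19. There were 246 such genes among 20163 protein-coding genes. The study compared m7G methylation of mRNA in HL60 cells, a human promyelocytic leukaemia line labelled as wild type, with HL60/MX2 cells, a drug-resistant line derived from HL60 by selection for resistance to mitoxantrone, an inhibitor of topoisomerase. Both lines grew in the same medium, and poly(A) RNA was decapped and fragmented before it was enriched with an antibody against m7G (m7G MeRIP-seq). One enriched library per line gave the peak lists used here, and the input libraries were not analysed here. With 1 such library per line, a difference between the lines and one between the libraries cannot be told apart, and nothing was tested between the lines. The 95% intervals in brackets (exact Clopper-Pearson) cover counting error only. Where intervals of the lines overlap, this does not show that the lines were alike.

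Most of these genes encode DNA-binding proteins with an array of C2H2 zinc fingers, in which a pair of cysteines and a pair of histidines hold a zinc ion. Many also carry a KRAB domain, which binds the corepressor TRIM28 and through it the histone methyltransferase SETDB1, so that the bound DNA, often a retrotransposon, is kept in heterochromatin. The genes arose by tandem duplication, lie in clusters and share much of their sequence, and as a rule the whole finger array is encoded by 1 long last exon. m7G is best known as the cap of mRNA. Since the RNA was decapped, peaks in these lists are read as internal m7G, though how complete the decapping was is not known here.

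The translated longest coding transcript of each of the 246 genes held at least 1 finger. That of ZNF274 held 5 fingers but also 12 internal stops, so its count is uncertain, and the label held for the other genes. The number of fingers ran from 1 to 36 with a median of 12, and 97.6% of the finger-coding bases lay in the last exon. That exon had a median length of 3226.5 bp, against 1206 bp in the other protein-coding genes, and the transcripts had a median of 4 exons against 8.

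A few coding peaks show what the fingers look like in the lists. They are printed 5′ to 3′ on the strand of the gene, from hg19, and the capitals mark matches to ACNGGNGANAANCCN, where N is any base. This is the commonest base at the first and second place of each of the 5 codons that follow a finger in these genes, which form the linker between fingers, and 46.3% of 3060 fingers were followed by a full match. The first pair are the HL60 and the HL60/MX2 peak of ZNF257 at chr19:22271802-22272013 and chr19:22271478-22271680 on the plus strand, shown because the lines carried neighbouring stretches of the same array. The peaks of ZNF599 (HL60, chr19:35249999-35250220, minus strand), ZNF234 (HL60, chr19:44660994-44661222, plus strand) and ZNF442 (HL60/MX2, chr19:12461029-12461231, minus strand) are shown because the linker recurs in genes of 3 other clusters.
ZNF257 HL60: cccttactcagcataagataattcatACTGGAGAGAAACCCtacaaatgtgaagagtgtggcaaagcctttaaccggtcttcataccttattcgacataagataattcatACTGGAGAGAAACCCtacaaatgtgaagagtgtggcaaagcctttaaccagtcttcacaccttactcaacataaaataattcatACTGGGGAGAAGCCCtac
ZNF257 HL60/MX2: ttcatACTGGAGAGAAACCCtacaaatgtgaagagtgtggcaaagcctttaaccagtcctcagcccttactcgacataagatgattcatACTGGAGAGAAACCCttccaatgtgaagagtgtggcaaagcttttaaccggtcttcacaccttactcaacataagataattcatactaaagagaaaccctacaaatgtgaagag
ZNF599 HL60: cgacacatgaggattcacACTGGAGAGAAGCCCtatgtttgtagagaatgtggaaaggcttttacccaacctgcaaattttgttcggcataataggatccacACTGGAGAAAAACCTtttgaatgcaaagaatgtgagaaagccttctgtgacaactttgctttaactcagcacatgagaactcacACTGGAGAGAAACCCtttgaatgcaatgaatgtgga
ZNF234 HL60: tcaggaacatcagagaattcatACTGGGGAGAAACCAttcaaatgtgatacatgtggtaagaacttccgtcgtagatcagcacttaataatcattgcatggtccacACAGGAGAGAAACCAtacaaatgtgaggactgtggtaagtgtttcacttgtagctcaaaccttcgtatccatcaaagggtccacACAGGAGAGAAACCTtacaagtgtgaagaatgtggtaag
ZNF442 HL60/MX2: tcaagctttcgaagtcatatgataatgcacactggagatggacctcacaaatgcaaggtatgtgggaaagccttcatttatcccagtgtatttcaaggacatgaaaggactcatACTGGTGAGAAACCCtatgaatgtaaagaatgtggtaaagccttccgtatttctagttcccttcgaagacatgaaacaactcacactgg

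There were 8070 peaks in the list of HL60 and 8122 in that of HL60/MX2. Read numbers behind the peaks were not analysed here and the sequencing depth is unknown, so precision rests on how many peaks there are. A peak was given to the gene whose exons it overlapped most on its own strand. The score is the authors' value per peak on a scale that is not stated, so it was compared only within a list. The lists hold no expression values, and of 10 fixed myeloid marker genes 1 had a peak in each line (CTSG in HL60, CD33 in HL60/MX2), which does not measure whether the markers were expressed.

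In HL60 cells 67 of the 246 zinc finger genes carried a peak (27.2%, 21.8-33.3%), where 26.4% of all protein-coding genes did. In HL60/MX2 cells 76 carried one (30.9%, 25.2-37.1%), where 28.6% of all genes did. Both shares were thus near those of all genes. No peak in either line was found in 128 of the 246 genes, and in 11502 of all 20163 protein-coding genes. Among other genes of like exon length and exon number, weighted to the zinc finger genes, the share was 23.9% for HL60 and 25.7% for HL60/MX2. The observed share was 1.14 times this value in HL60 (0.912-1.39) and 1.20 times in HL60/MX2 (0.980-1.44), and both intervals included 1. The ratio depended on what was held alike. With exon length and GC content in place of the number of exons it came to 0.802 (0.641-0.979) for HL60 and 0.920 (0.750-1.10) for HL60/MX2, and against genes of chromosome 19 alone it was 1.82 (1.45-2.22) and 1.54 (1.26-1.85).

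**Figure D1:**
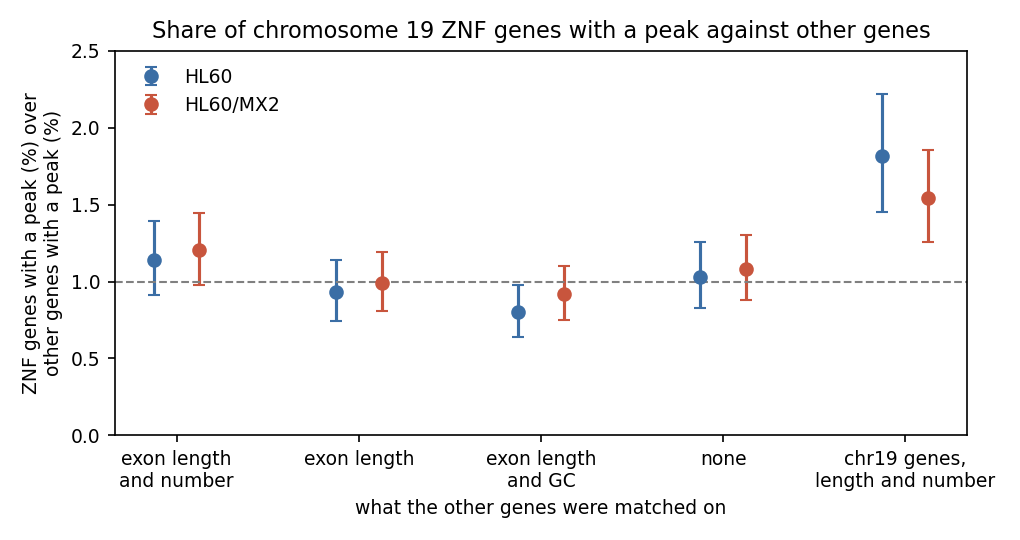
Points give the share of chromosome 19 zinc finger genes with a peak divided by the share among other genes, for 5 ways of choosing the other genes (horizontal axis), with 95% binomial intervals of the zinc finger share. The dashed line marks a ratio of 1, and the points lie on both sides of it, from 0.802 to 1.82.

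Genes with several peaks were a minority in both lists. Their share was near that of all peaked genes in HL60 and lower in the drug-resistant line. In HL60, 48 of the 67 genes had 1 peak, 15 had 2 and 4 had 3, so that 28.4% (18.01-40.7%) had 2 or more, where 29.4% of all genes with a peak had as many. In HL60/MX2, 67 of the 76 genes had 1 peak and 11.8% (5.56-21.3%) had 2 or more, where 25.3% of all genes with a peak did. The mean number of peaks per peaked gene was 1.34 for HL60 and 1.13 for HL60/MX2 in the zinc finger genes, against 1.46 and 1.36 in the other genes.

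HL60 showed 90 peaks in the zinc finger genes, and HL60/MX2 86, which is 62.6 and 59.8 peaks per Mb of their exons. In the other genes of the chromosome there were 212 HL60 peaks, and 344 HL60/MX2 peaks, or 43.7 and 70.9 per Mb. Over all other protein-coding genes the density was 69.5 and 70.1 per Mb, above that of the zinc finger genes in both lists. Against genes of like exon length and number the direction was reversed. The zinc finger genes had 0.366 peaks per gene against 0.303 in HL60, and 0.350 against 0.309 in HL60/MX2. The zinc finger genes thus held 29.3% (24.3-34.7%) of the chromosome 19 peaks in HL60 and 19.5% (15.9-23.6%) in HL60/MX2. Of the peaks of both lists together, 48.9% (41.3-56.5%) of those in zinc finger genes came from HL60/MX2, and 61.9% (57.7-65.9%) of those in other genes of the chromosome. The share over all other protein-coding genes was 50.2% (49.4-51.0%), inside the interval of the zinc finger genes. The larger number of chromosome 19 peaks in HL60/MX2 lay outside the zinc finger genes. ZNF genes of other chromosomes, 262 in number, carried 86 and 81 peaks (48.5% from HL60/MX2, 40.7-56.3%), with 59 and 61 genes peaked. The mean GC content of the exons was 44.9% in the zinc finger genes of chromosome 19, 47.2% in those of other chromosomes and 58.2% in the other genes of chromosome 19. The part of GC content in these counts was not tested.

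**Figure D2:**
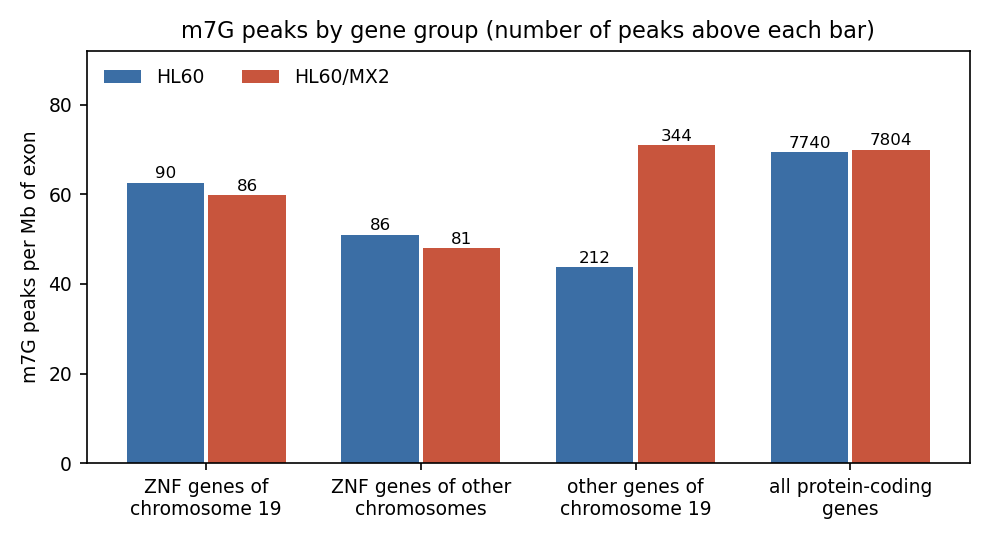
Bars give m7G peaks per Mb of exon in HL60 (blue) and HL60/MX2 (red) for 4 groups of genes, and the numbers above the bars are the peaks. Both groups of ZNF genes have bars of like height in the 2 lines (62.6 and 59.8 on chromosome 19), and the other genes of chromosome 19 do not (43.7 and 70.9).

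Joined where neighbouring zinc finger genes lay less than 1 Mb apart, 235 of the 246 genes fell into 9 clusters of 5 or more genes, 4 on the short arm (p1 to p4) and 5 on the long arm (q1 to q5), each numbered from the short arm's end or from the centromere. In every cluster the intervals of the lines overlapped, but they were wide, and the same genes were counted in both lines. The largest, q5, near the end of the long arm (chr19:55987984-58992597, from ZNF628 to ZNF446), held 59 genes, of which 8 were peaked in HL60 (13.6%, 6.04-24.98%), and 17 were in HL60/MX2 (28.8%, 17.8-42.1%). Like genes had shares of 22.9% and 24.4%. The cluster with the highest share in HL60 among those of more than 5 genes was q3 (chr19:44029649-45579736), with 10 of 24 genes (41.7%, 22.1-63.4%), and it had 8 (33.3%, 15.6-55.3%) in HL60/MX2. Like genes of q3 had shares of 21.4% and 23.3%. The first lay just below the HL60 interval, but q3 was picked as the highest cluster and nothing was tested. In p4, by the centromere (chr19:19779605-24312770), which holds recently duplicated genes such as ZNF91 and ZNF208, HL60 had peaks in 14 of 37 genes (37.8%, 22.5-55.2%) and HL60/MX2 in 11 (29.7%, 15.9-47.0%). Like genes of p4 had 24.6% and 26.0%, inside both intervals. In p3 (chr19:11594242-12750912) the numbers were 4 and 7 of 25 genes (16% and 28%, like genes 20.2% and 20.8%). In q2 (chr19:36673178-38307940) they were 9 and 9 of 26 (34.6% in each, like genes 25.7% and 28.9%). In q4 (chr19:52074536-54083523) they were 13 and 14 of 39 (33.3% and 35.9%, like genes 25.2% and 27.9%). The small clusters p1 and q1 held 5 genes each, with 1 and 2 peaked in HL60 and 0 and 1 in HL60/MX2, and p2 had 3 and 5 of 15. Like genes had 21.4% and 24.0% for p1, 23.1% and 25.4% for q1, and 26.2% and 28.0% for p2.

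**Figure D3:**
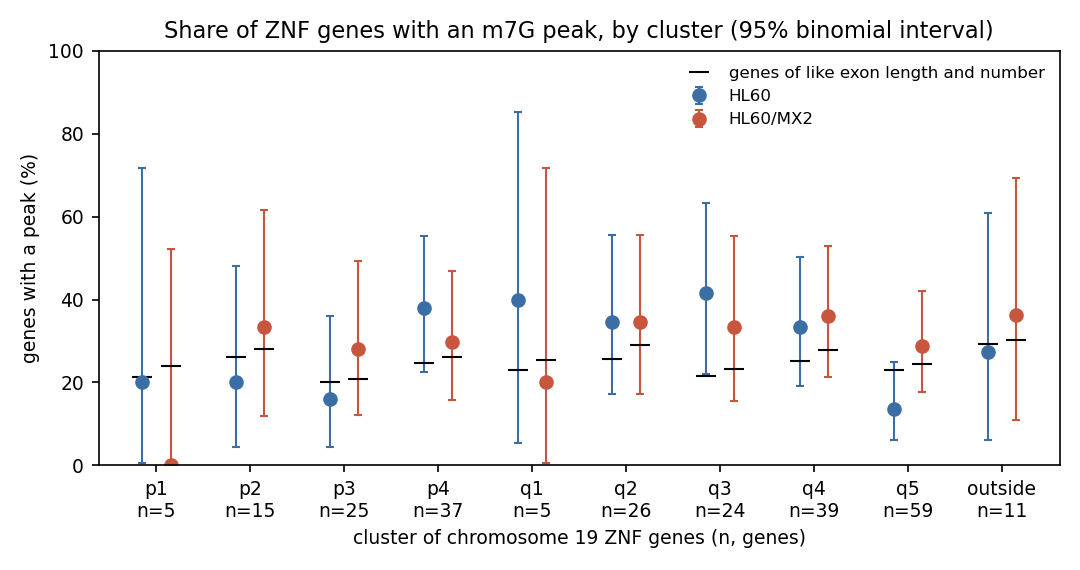
Points give the share of genes with a peak in each cluster of chromosome 19 zinc finger genes, in HL60 (blue) and HL60/MX2 (red), with 95% binomial intervals, and dashes give the share among other genes of like exon length and number. The intervals of the lines overlap in every cluster, with the widest gap between points among clusters of more than 5 genes in q5 (13.6% and 28.8%).

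By name, the peaked genes of p4 were ZNF85, ZNF429, ZNF208, ZNF257 and ZNF675 in both lines, ZNF682, ZNF66, ZNF430, ZNF100, ZNF98, ZNF492, ZNF99, ZNF730 and ZNF726 in HL60 only, and ZNF101, ZNF506, ZNF486, ZNF737, ZNF729 and ZNF724 in HL60/MX2 only. In q4 they were ZNF175, ZNF577, ZNF616 and ZNF677 in both, ZNF613, ZNF350, ZNF836, ZNF610, ZNF701, ZNF320, ZNF816, ZNF415 and ZNF813 in HL60 only, and ZNF614, ZNF480, ZNF880, ZNF528, ZNF611, ZNF28, ZNF347, ZNF665, ZNF525 and ZNF331 in HL60/MX2 only. In q5, ZNF628, ZNF470, ZNF548, ZNF418 and ZNF135 had a peak in both, ZNF471, ZNF304 and ZNF773 in HL60 only, and ZNF580, ZNF583, ZNF71, ZNF835, ZNF264, ZNF805, ZNF543, ZNF549, ZNF211, ZNF776, ZNF606 and ZNF324B in HL60/MX2 only. In q2 the genes were ZNF461, ZNF568, ZNF585A and ZNF793 in both, ZNF565, ZNF566, ZNF585B, ZNF570 and ZNF571 in HL60 only, and ZNF260, ZNF790, ZNF345, ZNF875 and ZNF540 in HL60/MX2 only. In q3 they were ZNF221, ZNF234 and ZNF285 in both, ZNF575, ZNF404, ZNF45, ZNF155, ZNF225, ZNF112 and ZNF229 in HL60 only, and ZNF283, ZNF222, ZNF223, ZNF284 and ZNF235 in HL60/MX2 only. In p3, ZNF136 had a peak in both, ZNF441, ZNF763 and ZNF564 in HL60 only, and ZNF491, ZNF69, ZNF878, ZNF625, ZNF442 and ZNF709 in HL60/MX2 only. The remaining peaked genes were ZNF558, ZNF546 and ZNF541 in both, ZNF57, ZNF560, ZNF846, ZNF181, ZNF599 and ZNF114 in HL60 only, and ZNF557, ZNF414, ZNF559, ZNF177, ZNF30, ZNF333 and ZNF574 in HL60/MX2 only. Peaks ran from 1 to 836 bp in HL60 and from 1 to 848 bp in HL60/MX2. In HL60/MX2 the only peak was of 1 bp in ZNF285, 2 bp in ZNF559 and 6 bp in ZNF628. In HL60 it was of 2 bp in ZNF99, 4 bp in ZNF568, 9 bp in ZNF114, 11 bp in ZNF98 and 14 bp in ZNF136. With only peaks of at least 50 bp, 58 genes were peaked in HL60, 67 in HL60/MX2 and 18 in both.

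A peak in both lines was found in 25 of the 246 genes (10.2%, 6.69-14.6%), where 12% of all genes had one and 9.01% of genes of like exon length and number. These 25 genes were 37.3% of the zinc finger genes peaked in HL60 and 32.9% of those peaked in HL60/MX2. The same shares were 45.5% and 42.05% over all protein-coding genes, and 33.9% and 32.8% in ZNF genes of other chromosomes. A peak in HL60 only was found in 42 genes (17.1%, against 14.4% of all genes) and in HL60/MX2 only in 51 (20.7%, against 16.5%). In 11 of the 25 genes both lines had a peak in the same exon, and in 8 both had one in the last exon. The nearest peaks of the lines were a median of 2790 bp apart along the genome. No such exon counts or distances are given here for other genes, and the last exon held most bases of these transcripts.

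Only 5 peaks of the zinc finger genes overlapped one of the other line by 1 bp or more, strand considered. They made up 5.56% (1.83-12.5%) of those in HL60 and 5.81% (1.92-13.0%) of those in HL60/MX2, where 6.13% and 6.09% of the whole lists did. The peaks lay in ZNF461, ZNF577, ZNF628, ZNF418 and ZNF135, each a different gene, so 20% (6.83-40.7%) of the genes peaked in both lines had such a peak, against 19.03% of the other genes. In ZNF577 the overlap was 331 bp of the first of 6 exons, in the 5' UTR (chr19:52390874-52391204), with a score of 194.8 in HL60, at percentile 49.4 of its list, and of 968 in HL60/MX2, at percentile 93.9. In ZNF461 it was 199 bp of the last exon, in the 3' UTR (chr19:37129377-37129575), with scores of 302.4 and 289.1, at percentiles 70.2 and 53.8 of their lists. In ZNF418 it was 63 bp of exon 3 of 7, also in the 5' UTR (chr19:58443952-58444014). Its scores were 287.2 and 346.6, at percentiles 68.0 and 61.6 of their lists. In ZNF135 the HL60 peak (638 bp, score 199.6, percentile 50.7) and the HL60/MX2 peak (657 bp, score 517.2, percentile 77.6) met over 64 bp of the last exon. The HL60/MX2 peak touched 7 fingers and the HL60 peak none. In ZNF628 the overlap was 6 bp, the whole length of the HL60/MX2 peak. ZNF546 had the closest peaks that did not meet, 7 bp apart in the last exon, and the peaks of ZNF257 printed above were 122 bp apart.

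The genes with the most peaks over both lists were ZNF585A, ZNF546 and ZNF135, with 3 in HL60 and 2 in HL60/MX2 each. ZNF585A (q2, 21 fingers) had HL60 scores of 2992.6 over its first exon and of 254.4 and 124.8 in its 3' UTR, and HL60/MX2 scores of 167.7 in the 3' UTR and 65.28 in a middle exon. ZNF546 (22 fingers) had HL60 scores of 165.3, 156.1 and 298.3, the 3 peaks all in the last exon, and HL60/MX2 scores of 414.3 in exon 6 of 7 and 290.2 in the last. Besides the pair that met, ZNF135 had HL60 scores of 203.8 and 368.5 in its exons 1 and 3, and an HL60/MX2 score of 935.8 in the last. In all 3 genes both lines had a peak in the last exon, and the highest score of HL60 lay in another exon than that of HL60/MX2. ZNF208, with 36 fingers the longest array of the chromosome, had 3 HL60 peaks with scores of 95.89, 218.2 and 76.43 and 1 HL60/MX2 peak of 39 bp with a score of 56.16. ZNF677 and ZNF470 had 2 peaks in each line, and ZNF264 had 3 in HL60/MX2, all in its 3' UTR with scores of 70.44, 380.1 and 176.9, and 0 in HL60. ZNF418 had 2 peaks in HL60 and 1 in HL60/MX2, like ZNF257 and ZNF234.

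The last exon held a smaller share of the peaks than of the bases. Of the 68 HL60 peaks that could be placed on the longest coding transcript, 41 (60.3%, 47.7-72.0%) lay in the last exon, which made up 81.8% of the bases of these transcripts. In HL60/MX2, 31 of 70 (44.3%, 32.4-56.7%) did, against 83.6% of the bases. Peaks of other genes of like exon length and number lay in the last exon in 55.2% and 50.7%, inside both intervals, and those of all other genes in 29.97% and 26.98%, against 46.9% and 46.8% of their bases. The intervals of the lines overlapped. The remaining 22 HL60 peaks (24.4%, 16.0-34.6%) and 16 HL60/MX2 peaks (18.6%, 11.0-28.5%) lay in exons of other coding transcripts of the same genes, where 14.8% and 14.9% of all assigned peaks did.

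By region, 15 HL60 peaks (22.1%, 12.9-33.8%) lay in the 5' UTR, 30 (44.1%, 32.1-56.7%) in the CDS and 23 (33.8%, 22.8-46.3%) in the 3' UTR. In HL60/MX2 the numbers were 21 (30%, 19.6-42.1%), 31 (44.3%, 32.4-56.7%) and 18 (25.7%, 16.0-37.6%). The 5' UTR made up 7.52% and 7.42% of the bases of these transcripts, and like genes had 10.9% and 16.2% of their peaks there, below both intervals. All other genes had 6.25% and 11.2% of their peaks in the 5' UTR, and ZNF genes of other chromosomes 19.4% and 23.9%. With 1 library per line these shares were not tested, and how complete the decapping was could not be checked.

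**Figure D4:**
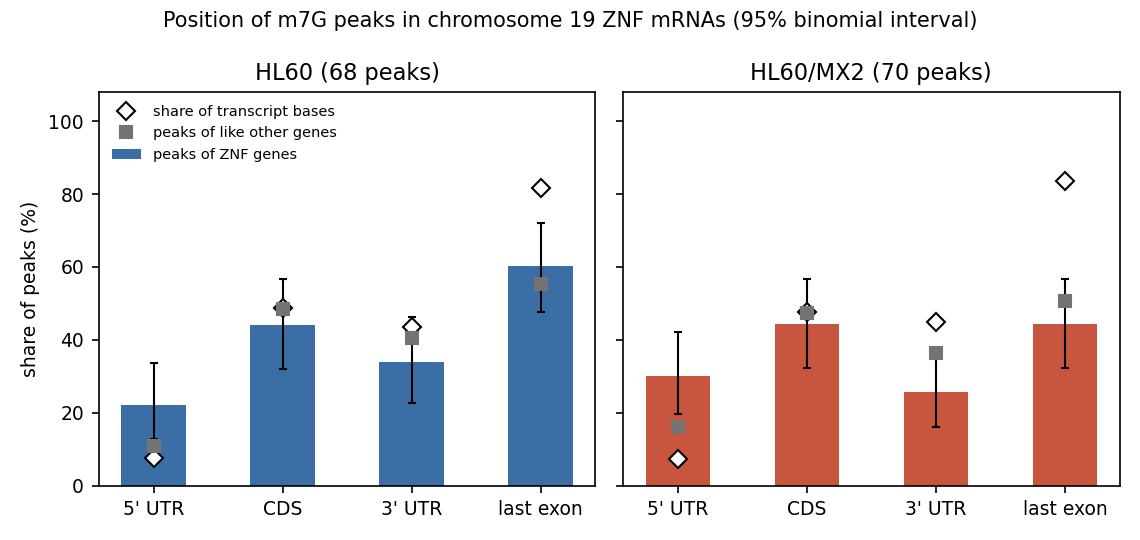
Bars give the share of placed peaks of chromosome 19 zinc finger genes in the 5' UTR, the CDS, the 3' UTR and, counted separately, the last exon, with 95% binomial intervals, for HL60 (left) and HL60/MX2 (right). Diamonds give the share of transcript bases and squares the share of peaks in other genes of like exon length and number. The 5' UTR bars (22.1% and 30%) stand above their diamonds, and the last exon bars (60.3% and 44.3%) stand below theirs.

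Peaks over the fingers themselves were a minority. Of the coding peaks, 13 of 30 in HL60 (43.3%, 25.5-62.6%) and 8 of 31 in HL60/MX2 (25.8%, 11.9-44.6%) covered finger-coding bases, and 1 further HL60/MX2 peak did so with most of its length in the 3' UTR (ZNF491). Finger-coding bases were 42.1% of the coding bases under HL60 peaks and 40.4% under HL60/MX2 peaks, against 45.5% and 42.0% of the coding sequence of the same genes. Among these coding peaks, ZNF491 left out, the median number of fingers touched was 4 for HL60 and 4.5 for HL60/MX2, and the highest was 7. In HL60 these peaks lay in ZNF57, ZNF564, ZNF257, ZNF599, ZNF793, ZNF571, ZNF546, ZNF221, ZNF234, ZNF836, ZNF320, ZNF816 and ZNF471, with scores from 50.53 in ZNF221 to 572.8 in ZNF471. In HL60/MX2 they lay in ZNF177, ZNF491, ZNF878, ZNF442, ZNF737, ZNF257, ZNF223, ZNF677 and ZNF135, with scores from 76.48 in ZNF177 to 1876.0 in ZNF677. ZNF257 alone had one in both lines.

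The linker motif (ACNGGNGANAANCCN), searched on the strand of the gene, occurred in 11 of the 90 HL60 peaks (12.2%) and in 9 of the 86 HL60/MX2 peaks (10.5%). It occurred in 20.4% of the 200-base windows of the zinc finger transcripts and in 9.94% of those of ZNF genes of other chromosomes. Over all genes outside the 246, those ZNF genes included, it occurred in 0.287% of windows. In the whole lists 21 and 16 peaks held it, and 52.4% and 56.2% of these lay in the zinc finger genes of chromosome 19. Other zinc finger genes held 7 and 3 of them. The motif was taken from the zinc finger genes of chromosome 19, so its concentration in them is no separate result. Peaks differ in length and the windows do not, so their shares are not measured alike. A match only says that the letters occur.

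The share of genes with a peak was set against the number of fingers and the length of the exons. Of the 84 genes with 10 fingers or fewer, 20.2% (12.2-30.4%) were peaked in HL60, and 29.8% (20.3-40.7%) were in HL60/MX2. Of the 87 genes with 11 to 14 fingers, 29.9% (20.5-40.65%) were peaked in each line. Of the 75 genes with 15 or more, 32% (21.7-43.8%) were peaked in HL60 and 33.3% (22.9-45.2%) in HL60/MX2. The shares in the 82 genes with the shortest exons were 23.2% (14.6-33.8%) and 28.0% (18.7-39.1%), and in the 82 with the longest 25.6% (16.6-36.4%) and 37.8% (27.3-49.2%). In the 82 between them they were 32.9% (22.9-44.2%) and 26.8% (17.6-37.8%), so neither line rose steadily with length. From the shortest to the longest, like genes had 18.6%, 22.6% and 30.4% in HL60 and 19.7%, 25.6% and 31.75% in HL60/MX2. Only the longest genes in HL60 fell below their like genes. These intervals overlapped in every case.

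Scores of the zinc finger peaks were close to those of their lists. In HL60 they ran from 50.53 to 2992.6 with a median of 196.2, against 196.8 in the whole list, and 50% (39.3-60.7%) were at or above the list's median. In HL60/MX2 they ran from 56.16 to 3100 with a median of 289.7, against 259.7, and 52.3% (41.3-63.2%) were at or above it. By exon, the median percentile within the list was 81.0 for the 8 HL60 peaks in a first exon, 47.8 for 19 in a middle exon and 50.7 for 41 in the last. In HL60/MX2 it was 88.9 for 11 first-exon peaks, 57.0 for 28 middle ones and 53.9 for 31 in the last. The first-exon peaks were few, and scores by exon were not taken for other genes. Whether high first-exon scores are particular to the zinc finger genes is therefore unknown.

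Of the 5 highest scores among the zinc finger peaks of each line, 4 in HL60 and 2 in HL60/MX2 lay in the 5' UTR. In HL60 they were those of ZNF585A (2992.6) and its neighbour ZNF585B (929.3), both covering a whole first exon (the second also over exons of another gene), of ZNF610 (853.5, first exon), and of ZNF558, with 835.6 in the 5' UTR and 724.3 in the 3' UTR. In HL60/MX2 the highest was ZNF574 (3100, a value shared by 53 peaks of that list), on a 149 bp exon of another coding transcript. ZNF345 (2594.1, first of 2 exons), ZNF616 (2513.0, an exon of another coding transcript), ZNF677 (1876.0, over 2 fingers of the last exon) and ZNF429 (1648.6, first exon) followed. None of these peaks overlapped a peak of the other line. ZNF429, ZNF616, ZNF677, ZNF558 and ZNF585A had peaks elsewhere in that line, and ZNF585B, ZNF610, ZNF574 and ZNF345 had none.

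**Figure D5:**
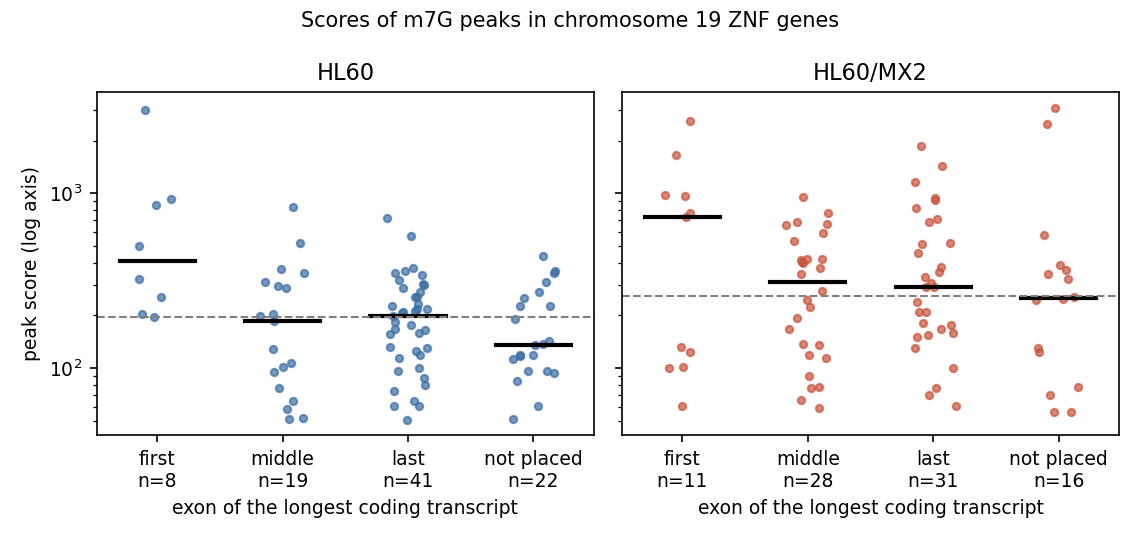
Points give the authors' score of each zinc finger peak (log axis) by the exon of the longest coding transcript that holds it, in HL60 (left) and HL60/MX2 (right). Black bars mark class medians, which in the first exon (412.6 and 736.2, from 8 and 11 peaks) lie above the dashed line, the median of the whole list (196.8 and 259.7). Other genes are not shown by exon.

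Repeated sequence was measured because the genes share much of theirs. A mean of 12.9% of the 32-base words of a peak occurred elsewhere in the genome in HL60 and 15.2% in HL60/MX2, against 6.746% and 6.803% for peaks of all other genes. Peaks in ZNF genes of other chromosomes had means of 11.5% and 3.004%. In 7 of 81 HL60 peaks (8.64%) and 11 of 80 HL60/MX2 peaks (13.8%) at least 50% of the words were repeated (11.7% and 1.32% in ZNF genes of other chromosomes), with median scores of 87.57 and 134.5. ZNF208, with 85.4% repeated words in its HL60 peak of a middle exon and 100% in its HL60/MX2 peak, ZNF675 in HL60/MX2 (100%) and ZNF813 in HL60 (100%) were among them. Reads of such stretches can come from more than 1 gene, so the gene given to these peaks is uncertain. Keeping only the peaks with no repeated word left 39 peaks in 35 genes in HL60 and 45 peaks in 42 genes in HL60/MX2. Peaks under 32 bp, 9 in HL60 and 6 in HL60/MX2, have no words and were left out too. The share of genes with a peak was then 0.743 and 0.847 times that of like genes filtered in the same way. The filter took out a larger share of the zinc finger peaks. In HL60, 42 of their 81 peaks with words had a repeated one, against 964 of 6862 in all other genes. In HL60/MX2 it was 35 of 80, against 1034 of 7011. These ratios can therefore not be read as a lack of peaks in the zinc finger genes. The share of the peaks that came from HL60/MX2 was 53.6% after this filter.

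In all, 10 genes were looked up whatever their values. Among them, ZNF91 and ZNF93, repressors of retrotransposons, had 0 peaks in either line. ZNF274, which recruits SETDB1 to the 3' ends of zinc finger genes, also had 0, as did ZNF224, ZNF382, ZNF43 and ZNF536, a repressor of neuronal differentiation. Having no peak was common, as 128 of the 246 zinc finger genes had none in either line. ZNF45 had 1 HL60 peak of 109 bp in its 5' UTR with a score of 51.93, near the lowest of the list. ZNF331, an imprinted gene, had 1 HL60/MX2 peak with a score of 344.8, and 54.9% of its words were repeated. ZNF568 had 1 peak in each line, of 4 bp in HL60 (score 65.03) and of 219 bp in the 3' UTR in HL60/MX2 (score 685.8).

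The corepressors that KRAB zinc finger proteins work with were taken as a fixed list of 25 genes. Of these, HL60 had peaks in 6 (24%, 9.36-45.1%), HL60/MX2 in 10 (40%, 21.1-61.3%) and both lines in 4, and both intervals included the shares of all genes. TRIM28 itself had none. SETDB1 had 1 peak in each line, with scores of 285.6 and 54.59, and its partner ATF7IP had 2 in HL60 and 0 in HL60/MX2. ATRX, a chromatin remodeler of heterochromatin, had 1 and 2, the DNA methyltransferase DNMT3B 1 and 2, and DNMT1 0 and 1. The histone deacetylase HDAC2 had 1 in each line, and HDAC1 had 1 in HL60/MX2 with a score of 1388.0. Of 20 other zinc finger genes of the chromosome with symbols such as ZFP14, ZIK1 or ZSCAN22, HL60 had peaks in 6 (30%, 11.9-54.3%) and HL60/MX2 in 5 (25%, 8.66-49.1%).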

How the data were processed

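Per the study's methods and the submitters' processing notes, the authors trimmed the reads with Cutadapt (1.9.3), aligned them to hg19 with Hisat2 (2.0.4), called peaks with MACS and kept those over exons of protein-coding genes. The version and settings of MACS are not given in the sources used here. The input reads were aligned with STAR as well. The deposited lists give a position, a strand and a score for each peak, as the authors' peak calling made them. Starts were counted from 1. The reference matched hg19 in the length of chromosome 1 (249250621 bp).

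Peaks were given to genes by exon overlap, with ties going to genes that are not readthroughs, then to shorter ones. Like genes shared a bin of exon length (20 bins) and of exon number (5 bins), and their share was averaged with the zinc finger genes as weights. Exons and regions were those of the coding transcript with the longest CDS. Fingers were found in its translation as C, 2 to 4 residues, C, 12 residues, H, 3 to 5 residues, H, since no RefSeq protein was used here, and the translation of ZNF274 held 12 internal stops. Words of 32 bases were counted on both strands of the genome. Peaks under 32 bp have none and were left out by the filters on repeated words.

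The genes named were those with an overlapping peak, the 10 with the most peaks (ties taken in order of symbol, which left out ZNF558, ZNF577, ZNF675 and ZNF85 at 3 peaks), those of the 5 highest scores per line among zinc finger peaks, the leading gene of each cluster and 10 fixed symbols, and every peaked gene is named once. Members and lists were chosen with earlier results of these data known. The counting was tested on simulated data. Python (3.11.15) was used, with scipy 1.17.1 for intervals, numpy 2.4.6, numba 0.67.0 and matplotlib 3.10.9.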

Additional observations from a re-analysis of the deposited data

How the results depend on the processing

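Alternatives were tried for the symbols, the assignment of peaks, the lowest score and length, the overlap, the last exon, the matching and the gap between clusters, and the filters on repeated words were chosen after seeing the data. Requiring 50% of both peaks left 3 shared peaks. The ratio to like genes was 0.802 in HL60 and 0.920 in HL60/MX2 with exon length and GC content, and 1.82 and 1.54 against genes of chromosome 19 alone. Keeping peaks with no repeated word gave 35 genes and 39 peaks in HL60, 42 genes and 45 peaks in HL60/MX2, 8 genes in both lines, 3 shared peaks, ratios of 0.743 and 0.847 and a last exon share of 45.2% in HL60. With under 50% of words repeated, 16 genes had a peak in both lines. Fewer peaks entered under both filters, which took out a larger share of zinc finger peaks than of other peaks and also left out peaks under 32 bp. For the matching the cause was not tested. The other 105 of 120 values stayed within 1.5 times (counts) or within the 95% interval of the value reported (shares, ratios and median scores). A gap of 0.5 Mb gave 10 clusters of 5 or more genes and 2 Mb gave 6, against 9. No paired analysis was possible because each line has 1 library. The depth is unknown, so a gene without a peak may be one with too few reads.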
